A study of Mus musculus with 18 samples.

Results

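The genes described are 58 mouse genes of DNA replication and of entry into S phase, read in thymic dendritic cells (DCs) that carry the chemokine receptor XCR1. The list names genes by their known role and applies no threshold to the measured values, but it was drawn up with earlier results of these data known. A gene was kept if a probeset of the array maps to its symbol and to no other, and where several did, the one with the highest mean stood for the gene. That left 57 of the 58 genes, among 19938 genes read in the same way. The gene lost was Cdkn1a, whose probeset is shared with a second symbol. The study placed 18 Affymetrix whole-transcript arrays in 6 groups of 3. They come from 2 stages, homeostatically matured cells (CCR7+, CD117-) and immature cells (CCR7-, CD117+), both gated as CD11b-CD11c+MHCII+CD172a-XCR1+CD8a+. The stages were sorted from Ifnar1-KO mice, which lack a chain of the type I interferon receptor, from germ-free (GF) wild-type mice, and from wild-type control (CTRL) mice. The Ifnar1-KO and CTRL mice were kept free of specific pathogens, all mice were of the B6 strain and untreated, and their ages are not stated. The comparisons address whether the move from CCR7- to CCR7+ cells depends on type I interferon signalling or on the microflora.

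Before a chromosome can be copied, origins are licensed by loading the MCM helicase, and at the start of S phase CDC45 and the GINS complex join it to form the working helicase. Primase then starts new strands behind it with short primers, which the polymerases extend into DNA. A ring-shaped clamp holds the polymerases on the template, and ribonucleotide reductase supplies the deoxynucleotides. Entry into S phase is set by D and E cyclins with their kinases, which release E2F factors from the retinoblastoma proteins, and many replication genes are E2F targets. Immature DCs and their precursors can still divide, whereas maturation of DCs is classically tied to leaving the cell cycle.

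All values are log2 intensities, so a change of 1 is a factor of 2. A change is CCR7+ minus CCR7- and carries its standard error (± SE) from a linear model of all genes with 3 arrays per group. Genes are called where the Benjamini-Hochberg adjusted p of limma, taken over all 19938 genes, was under 0.05. Which mice stood behind each array is not recorded, so a p-value speaks to array-to-array spread alone, which may be technical. An array is named below by its stage and replicate number, so that CCR7+ 1 is the CCR7+ array of replicate 1.

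The stage markers followed the labels, while the XCR1+ DC markers were lower in the CCR7+ than in the CCR7- cells. The mean level of 10 XCR1+ DC genes was 7.08 to 8.51 on CCR7+ arrays and 10.35 to 10.59 on CCR7- arrays, and that of 8 mature DC genes was 11.31 to 11.58 on CCR7+ arrays and 6.84 to 8.30 on CCR7- arrays. Of the XCR1+ DC genes 8 fell and 1 rose in the mean of the backgrounds, with a median change of -3.20. Over all genes 18.9% fell and 20.4% rose in that comparison. Xcr1 itself had group means of 6.40 to 7.0 in CCR7+ cells, with Ifnar1-KO arrays from 4.89 to 8.36, against 11.39 to 11.51 in CCR7- cells. Its RNA is thus a weaker sign of the XCR1+ label in the CCR7+ cells than in the CCR7- cells. The label rests on the sort gate, which RNA levels do not check. Ifnar1 averaged 6.88 in Ifnar1-KO CCR7+ cells and 7.67 in Ifnar1-KO CCR7- cells, against 7.72 and 8.08 in the CTRL cells of the same stages. It is not stated where its probes lie relative to the deleted part, so this is no check of the knockout. Markers of thymocytes, the main neighbours of these DCs, were also higher in CCR7+ cells. In the mean of the backgrounds 15 of 18 rose and 0 fell, against 20.4% and 18.9% of all genes, with a median change of 1.35. Their mean level was 5.30 to 6.20 on 8 CCR7+ arrays, 7.79 on the Ifnar1-KO array CCR7+ 2, and 4.53 to 5.25 on the CCR7- arrays, and their part in the results below was not tested. On that array Cd3d read 10.25 and Rag1 10.31. Of those markers Ptcra stayed at 3.84 to 4.70 on all arrays. B cell markers averaged 3.98 to 4.27 on CCR7+ and 4.04 to 4.35 on CCR7- arrays, and macrophage markers 4.56 to 4.86 on CCR7+ and 5.06 to 5.27 on CCR7- arrays.

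Replication genes were lower in CCR7+ than in CCR7- cells in each background. In the mean of the 3 backgrounds 50 of 57 fell, 1 rose and 6 were not called, where 18.9% of all genes fell and 20.4% rose, or 39.4% in either direction. In Ifnar1-KO mice 42 fell and 1 rose, where 10.8% of all genes fell and 9.42% rose, or 20.2% in either direction. In GF mice 42 also fell and 1 rose, where the shares of all genes were 11.8% and 9.53%. In CTRL mice 44 fell and 1 rose, where the shares were 13.6% and 12.6%. The gene that rose was Ccnd2, which encodes cyclin D2, in every one of these comparisons. The median change of the 57 genes was -1.09 in Ifnar1-KO, -1.17 in GF and -1.22 in CTRL cells, while the median of all genes was 0.00, 0.03 and 0.07. A total of 36 genes fell in all 3 backgrounds, as did 8.71% of all genes. On 36 genes, not all of them the same, each of the 9 CCR7+ arrays lay below each of the 9 CCR7- arrays, an order seen in 8.28% of all genes. With sorted cells measured in bulk, fewer dividing cells and less RNA per cell cannot be told apart.

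**Figure D1:**
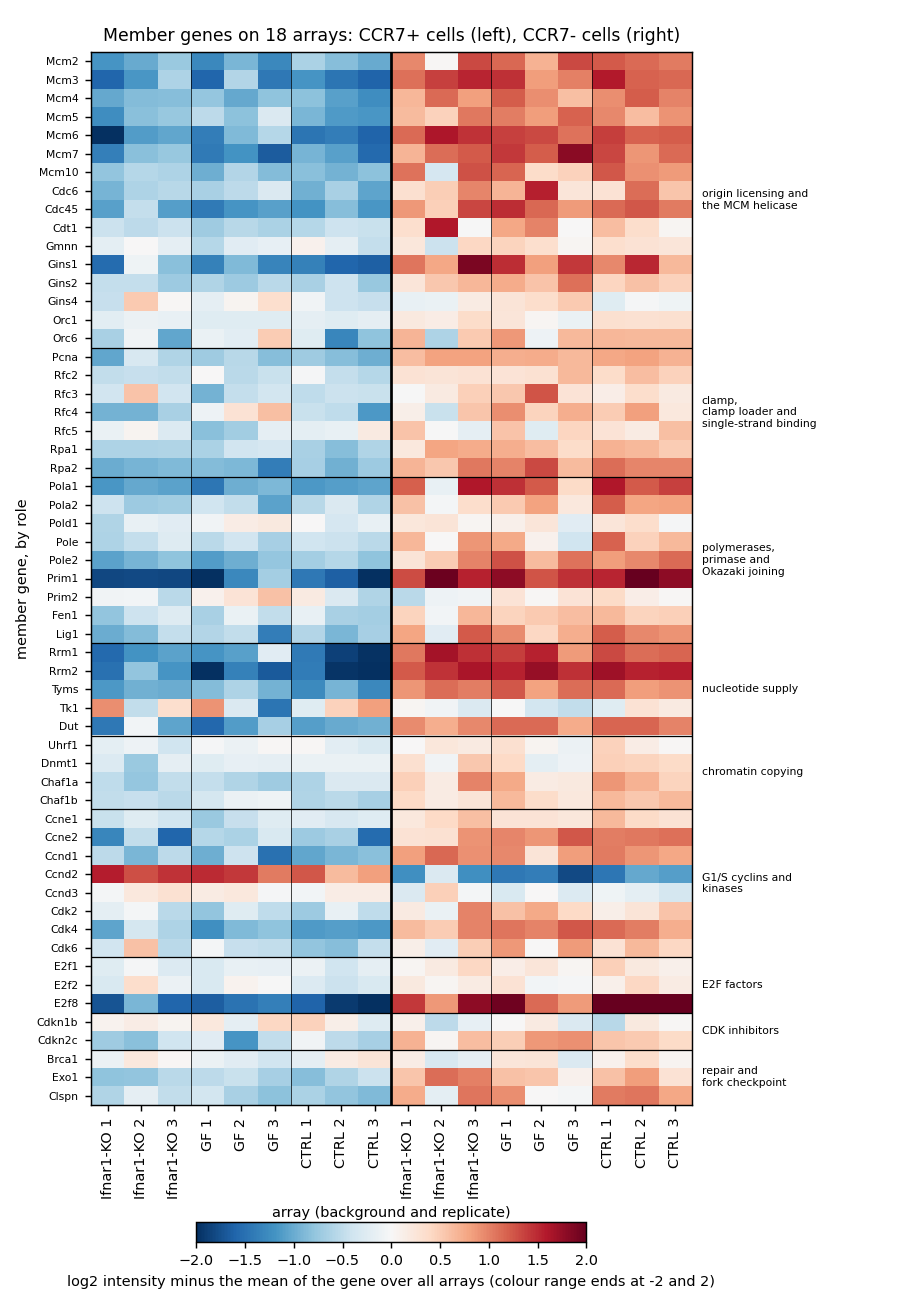
Each row is 1 of the 57 genes, grouped by role, and each column 1 array, with CCR7+ arrays left of the heavy line and CCR7- arrays right of it. Colour gives the log2 intensity minus the mean of that gene over all 18 arrays. Most rows are blue on the left and red on the right, Ccnd2 is the reverse, and rows such as Gins4, Prim2, Tk1 and Brca1 show no such split.

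Of the 57 genes, 45 have a promoter window in the RefSeq table used (GRCm38.p6), which covers 250 bases before and 50 after a transcription start. The windows were searched for letters bound by E2F factors (TTTCCCGC, TTTCGCGC, TTTGCCGC and TTTGGCGC, on both strands). They were present in 14 of 45 replication genes (31.1%) and in 3.08% of the 15614 genes with a window, counting the first window of a gene. With every listed window of a gene counted, the numbers were 17 of 45 (37.8%) and 3.48%. By role the letters were held by 7 of 11 origin and helicase genes, 3 of 7 polymerase and strand-joining genes, 1 of 6 clamp and single-strand binding genes, 1 of 5 cyclins and kinases, 1 of 3 E2F genes and 1 of 2 repair genes. They were held by 0 of 5 nucleotide supply genes, 0 of 4 chromatin genes and 0 of 2 CDK inhibitors. These counts by role use the first window. With every listed window counted, 2 of 4 chromatin genes (Dnmt1 and Uhrf1) and 4 of 7 polymerase and strand-joining genes held them, and the other roles kept their counts. The CHR letters found before many mitotic genes (TTTGAA and TTCGAA, both strands) were in 15.6% of the replication genes against 16.8% of all, and CCAAT, on both strands, was in 57.8% against 38.2%. Of the 41 genes with a window that fell in the mean of the backgrounds, 14 held E2F letters, and of the 4 with a window that were not called, 0 did. Those 4 (Tk1, Ccnd3, Cdkn1b and Brca1) are too few for a comparison, and the 2 probesets of Tk1 differ in direction. A match is a description of the letters and not a site shown to be bound. The 250 bases before the start used for the window follow for 5 genes that fell in all 3 backgrounds. That start lies inside the annotated gene span for Cdc6 (chr11:98907709-98923942), Pola1 (chrX:93304766-93632387) and Mcm5 (chr8:75109468-75128439). The Cdc6 bases shown thus lie wholly within the annotated gene, and those of Pola1 and Mcm5 in part. Mcm5 and Mcm6 hold overlapping E2F letters, Cdc6 and Pola1 hold them once, and Rrm2, among the strongest falls, holds none in its window. Mcm5 lies at chr8:75109259-75109508 (plus strand), Mcm6 at chr1:128359706-128359955 (minus strand), Cdc6 at chr11:98907901-98908150 (plus strand), Pola1 at chrX:93632156-93632405 (minus strand) and Rrm2 at chr12:24708004-24708253 (plus strand). Each is written 5′ to 3′ along the gene, with the E2F letters in capitals.
Mcm5: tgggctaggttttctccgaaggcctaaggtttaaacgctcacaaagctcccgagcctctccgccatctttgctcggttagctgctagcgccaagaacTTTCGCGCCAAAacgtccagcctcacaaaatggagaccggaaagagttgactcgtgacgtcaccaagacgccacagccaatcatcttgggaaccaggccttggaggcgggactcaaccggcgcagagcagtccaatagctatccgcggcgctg
Mcm6: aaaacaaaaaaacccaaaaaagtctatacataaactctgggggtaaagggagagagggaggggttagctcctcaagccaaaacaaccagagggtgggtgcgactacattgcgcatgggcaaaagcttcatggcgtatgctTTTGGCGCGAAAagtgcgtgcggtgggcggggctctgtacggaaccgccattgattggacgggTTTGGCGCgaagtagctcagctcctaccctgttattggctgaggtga
Cdc6: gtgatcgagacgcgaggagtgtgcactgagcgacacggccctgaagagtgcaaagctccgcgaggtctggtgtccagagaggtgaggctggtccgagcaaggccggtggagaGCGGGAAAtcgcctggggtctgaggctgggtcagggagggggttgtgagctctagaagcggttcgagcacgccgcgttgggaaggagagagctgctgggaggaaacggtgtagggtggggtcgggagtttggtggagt
Pola1: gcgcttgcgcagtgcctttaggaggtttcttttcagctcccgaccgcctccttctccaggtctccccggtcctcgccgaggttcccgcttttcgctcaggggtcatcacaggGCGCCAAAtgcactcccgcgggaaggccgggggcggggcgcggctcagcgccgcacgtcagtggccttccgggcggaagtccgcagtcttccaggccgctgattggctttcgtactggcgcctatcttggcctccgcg
Rrm2: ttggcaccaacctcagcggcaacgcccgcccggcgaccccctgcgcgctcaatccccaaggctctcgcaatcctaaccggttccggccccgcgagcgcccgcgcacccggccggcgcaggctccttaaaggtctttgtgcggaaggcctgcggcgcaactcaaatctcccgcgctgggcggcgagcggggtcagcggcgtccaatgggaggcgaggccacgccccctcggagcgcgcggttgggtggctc

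All 6 subunits of the MCM2-7 helicase, the ring that unwinds the template, fell in each background. Mcm6 had 5.57, 6.77 and 6.85 in Ifnar1-KO CCR7+ cells, 6.50, 7.0 and 7.31 in GF CCR7+ cells and 6.42, 6.50 and 6.29 in CTRL CCR7+ cells. It had 9.01, 9.49 and 9.33 in Ifnar1-KO CCR7- cells, 9.25, 9.20 and 8.96 in GF CCR7- cells and 9.27, 9.05 and 9.10 in CTRL CCR7- cells. No CCR7+ array reached the range of the CCR7- arrays, and Ifnar1-KO CCR7+ 1 was the lowest. The Mcm6 change was -2.61 ± 0.16 in the mean of the backgrounds, with an adjusted p of 3.54e-09. Mcm3 (-2.49 ± 0.16), Mcm7 (-2.41 ± 0.13), Mcm2 (-1.98 ± 0.15), Mcm4 (-1.89 ± 0.09) and Mcm5 (-1.70 ± 0.10) followed. The order among the subunits differed between backgrounds, with Mcm6 the largest fall in Ifnar1-KO (-2.89) and CTRL (-2.74) and Mcm7 in GF (-2.90).

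The genes that load and activate the helicase fell as well, but unevenly. Cdc45, which joins the MCM ring in the active helicase, changed by -2.12 ± 0.13, Mcm10, an activation factor, by -1.56 ± 0.18, and Cdc6, a loading factor, by -1.39 ± 0.16. Cdt1, the partner of CDC6 in loading, read 4.72 to 5.02 on all CCR7+ arrays and 5.42 to 7.04 on CCR7- arrays, and fell by 1.05 ± 0.19. The 7.04 came from the Ifnar1-KO array CCR7- 2. Without that array the Ifnar1-KO change was -0.63 and was not called, and without any 1 of the Ifnar1-KO CCR7+ arrays (-1.08 to -1.12) it was not called either. In GF the call ended without the array CCR7- 2 (-1.02). In CTRL cells Cdt1 changed by -0.82 (adjusted p 0.0758), and was called once the Ifnar1-KO array CCR7- 2 or CCR7- 3 was left out of the fit. Gmnn encodes geminin, the inhibitor of CDT1, and fell by 0.42 ± 0.11 in the mean of the backgrounds. In GF (-0.60) its call ended without any 1 of the GF arrays CCR7+ 1 (-0.47), CCR7+ 2 (-0.64), CCR7- 1 (-0.51) or CCR7- 2 (-0.57). It also ended, with the value kept at -0.60, without the Ifnar1-KO array CCR7+ 3 or any 1 of the CTRL arrays CCR7+ 2, CCR7- 1, CCR7- 2 and CCR7- 3, which alter the shared estimate of spread. Orc1 and Orc6 encode subunits of the origin recognition complex. Orc1 fell by 0.40 ± 0.05 but lay at 3.47 to 3.6 on CCR7+ and 3.59 to 4.08 on CCR7- arrays, near the level of unexpressed genes, and its GF call ended without the GF array CCR7+ 1 (-0.29) or CCR7- 1 (-0.19). Orc6 fell by 0.88 ± 0.21 with overlapping arrays, 6.68 to 8.48 in CCR7+ and 7.36 to 8.85 in CCR7- cells. It was called in CTRL (-1.43) and, without the Ifnar1-KO array CCR7- 2, also in Ifnar1-KO cells.

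The 4 subunits of the GINS complex did not move together. Gins1 had 3.95, 5.40 and 4.65 in Ifnar1-KO, 4.13, 4.60 and 4.17 in GF and 4.13, 3.90 and 3.85 in CTRL CCR7+ cells. It had 6.55, 6.26 and 7.37 in Ifnar1-KO, 6.96, 6.30 and 6.89 in GF and 6.45, 6.98 and 6.13 in CTRL CCR7- cells. All CCR7+ arrays thus lay below all CCR7- arrays, with a change of -2.34 ± 0.20, while Gins2 changed by -1.19 ± 0.08. Gins4 did not pass the test in any background, at 0.07 ± 0.20 in Ifnar1-KO, -0.31 ± 0.20 in GF and -0.20 ± 0.20 in CTRL cells, and its arrays overlapped at 7.55 to 8.54 in CCR7+ and 7.78 to 8.55 in CCR7- cells. The remaining subunit, Gins3, is not in the list of 57 and went the other way. It had 7.72, 7.37 and 7.81 in Ifnar1-KO, 8.18, 7.70 and 8.05 in GF and 7.86, 8.04 and 7.54 in CTRL CCR7+ cells, against 5.52, 5.78 and 5.73, 6.14, 5.81 and 6.48, and 6.40, 6.31 and 5.79 in the CCR7- cells of the same backgrounds. No array of one stage reached into the other, and Gins3 rose by 1.81 ± 0.12 with an adjusted p of 6.6e-09.

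**Figure D2:**
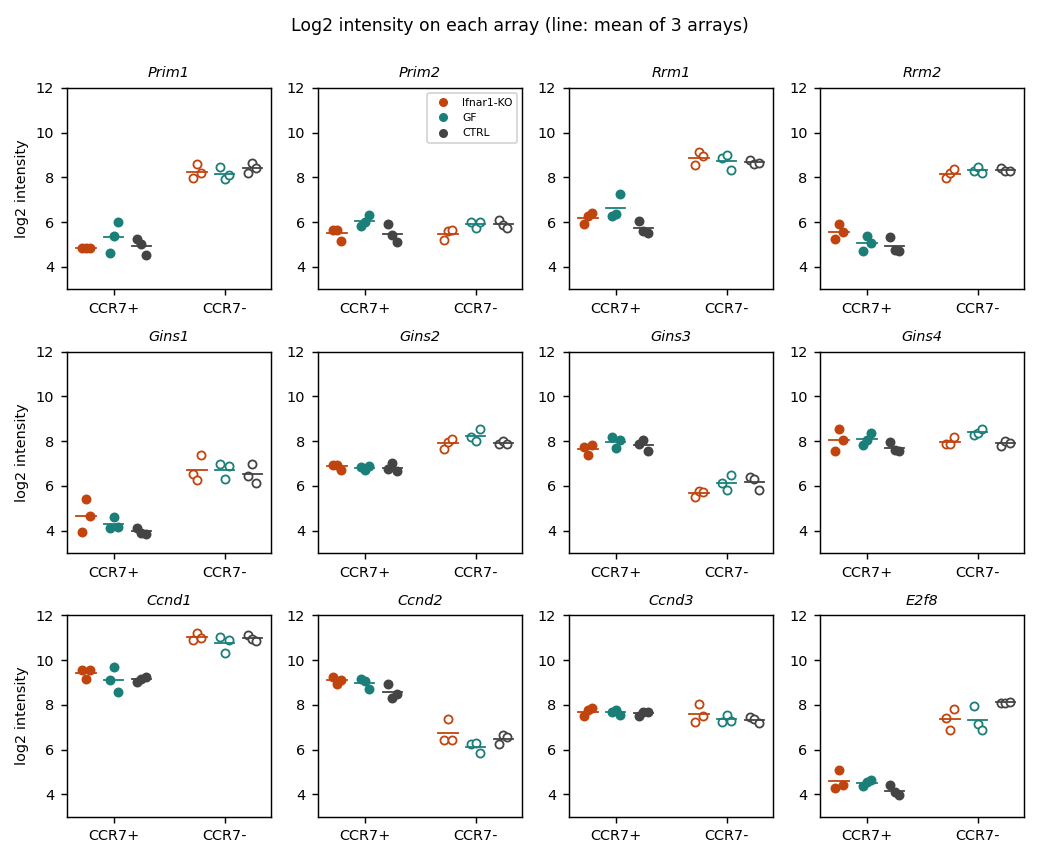
Log2 intensity (vertical axis) of 12 genes on each array by stage and background, with CCR7+ arrays filled and left, CCR7- arrays open and right, and a line at the mean of 3 arrays. Prim1, Rrm1, Rrm2, Gins1, Gins2, Ccnd1 and E2f8 are lower in CCR7+ cells, Gins3 and Ccnd2 are higher, and the stages overlap for Prim2, Gins4 and Ccnd3.

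At the fork itself, RNA of the listed genes for the sliding clamp PCNA, its loader and the single-strand binding protein RPA was lower in CCR7+ cells. Of these genes, which do not cover every subunit, 7 of 7 fell in the mean of the backgrounds. Pcna was bright throughout, at 9.63 to 10.34 on CCR7+ and 11.27 to 11.47 on CCR7- arrays, and fell by 1.47 ± 0.08. Its second probeset gave -1.48 with nearly the same readings, and whether it is an independent reading of Pcna was not checked. Rpa2 changed by -1.85 ± 0.10 and Rpa1 by -1.18 ± 0.08, again with no overlap between stages. The clamp loader genes fell less. Rfc4 changed by -0.86 ± 0.15, Rfc2 by -0.78 ± 0.09, Rfc3 by -0.75 ± 0.15 and Rfc5 by -0.49 ± 0.14, and the arrays of the stages overlapped for Rfc3, Rfc4 and Rfc5. Rfc2 was called in all 3 backgrounds, Rfc4 in Ifnar1-KO and CTRL, and Rfc3 and Rfc5 in GF. The Rfc4 call in Ifnar1-KO (-0.92) ended without the Ifnar1-KO array CCR7+ 1 or CCR7+ 2 (-0.87 each), CCR7- 1 (-0.90) or CCR7- 3 (-0.68). That of Rfc5 in GF (-0.82) ended without the GF array CCR7+ 1 (-0.69), CCR7+ 2 (-0.75), CCR7- 1 (-0.66) or CCR7- 3 (-0.73). Rfc3 in CTRL (-0.69, adjusted p 0.0706) was called once the Ifnar1-KO array CCR7+ 2 or the GF array CCR7- 2 was left out.

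Among the polymerases and the enzymes that start and join new strands, the catalytic subunit of primase had the largest change in each background. Prim1 had 4.84, 4.85 and 4.83 in Ifnar1-KO, 4.61, 5.37 and 5.98 in GF and 5.23, 5.03 and 4.55 in CTRL CCR7+ cells. It had 7.95, 8.61 and 8.20 in Ifnar1-KO, 8.45, 7.92 and 8.11 in GF and 8.17, 8.66 and 8.44 in CTRL CCR7- cells. The highest CCR7+ array was thus below the lowest CCR7- array by more than the spread within either stage. Prim1 fell by 3.25 ± 0.16 with an adjusted p of 4.27e-10. Its CCR7+ means of 4.84, 5.32 and 4.93 in Ifnar1-KO, GF and CTRL cells lie in the range of genes that DCs do not use, so this fall may be a lower bound. Prim2, which encodes the large primase subunit, read 5.12 to 6.29 on CCR7+ and 5.18 to 6.09 on CCR7- arrays. Its change was -0.09 ± 0.12 with an adjusted p of 0.576, and in CTRL (-0.41) it was called without the CTRL array CCR7+ 1 (-0.62).

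Pola1, the catalytic subunit of the polymerase that extends the primer, changed by -2.20 ± 0.20, and its partner Pola2 by -1.16 ± 0.12. Pola1 lay at 4.04 to 4.58 on CCR7+ arrays and 5.33 to 7.08 on CCR7- arrays, where the lowest value was that of the Ifnar1-KO array CCR7- 2. For the leading-strand polymerase epsilon, Pole2 changed by -1.71 ± 0.10 and the catalytic subunit Pole by -0.95 ± 0.15. Pole was called in Ifnar1-KO and CTRL, and its Ifnar1-KO call ended without the Ifnar1-KO array CCR7+ 1 (-0.88), CCR7- 1 (-0.89) or CCR7- 3 (-0.79). In GF (-0.67) it was called without the GF array CCR7- 3. Pold1, the catalytic subunit of the lagging-strand polymerase delta, changed least of the called genes, at -0.26 ± 0.09 with an adjusted p of 0.0241. Its call in the mean of the backgrounds ended without any 1 of the GF arrays CCR7+ 1 and CCR7- 2 and the CTRL arrays CCR7+ 2 and CCR7- 2 (-0.23 to -0.24). In Ifnar1-KO cells (-0.50) it ended without the Ifnar1-KO array CCR7+ 1 (-0.36), CCR7- 1 (-0.47) or CCR7- 2 (-0.46), and with the replicate number as a block, where the adjusted p was 0.0559. Lig1 and Fen1, which process and join Okazaki fragments, changed by -1.55 ± 0.18 and -0.93 ± 0.11.

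Genes of nucleotide supply fell strongly, with 4 of 5 called in each background. Both subunits of ribonucleotide reductase were among the 5 largest changes in the mean of the backgrounds. Rrm2 had 5.24, 5.93 and 5.54 in Ifnar1-KO, 4.72, 5.37 and 5.05 in GF and 5.33, 4.76 and 4.71 in CTRL CCR7+ cells. It had 7.95, 8.18 and 8.35 in Ifnar1-KO, 8.27, 8.47 and 8.18 in GF and 8.42, 8.27 and 8.30 in CTRL CCR7- cells. The CCR7- arrays were close together, and every CCR7+ array lay below them. Rrm2 changed by -3.08 ± 0.12 (adjusted p 2.12e-11) and Rrm1 by -2.57 ± 0.15. Tyms, which makes thymidylate, changed by -2.01 ± 0.08, and Dut, which clears dUTP, by -1.99 ± 0.16.

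Tk1, the thymidine kinase of the salvage route, gave 2 answers. The probeset used here read 6.96 to 9.35 on CCR7+ and 7.93 to 8.72 on CCR7- arrays and did not pass the test (0.21 ± 0.27, adjusted p 0.576). The dimmer probeset read 4.84 to 6.76 on CCR7+ and 6.91 to 8.08 on CCR7- arrays, without overlap. Its change was -1.26 ± 0.22, with an adjusted p over all probesets of 0.000345, and was called in Ifnar1-KO (-1.30) and GF (-1.84) but not in CTRL cells (-0.62, adjusted p 0.269). The 2 probesets differ in direction, and no direction is given for Tk1. Where the probes of each lie was not checked, so the 2 need not be equally good readings of Tk1.

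**Figure D3:**
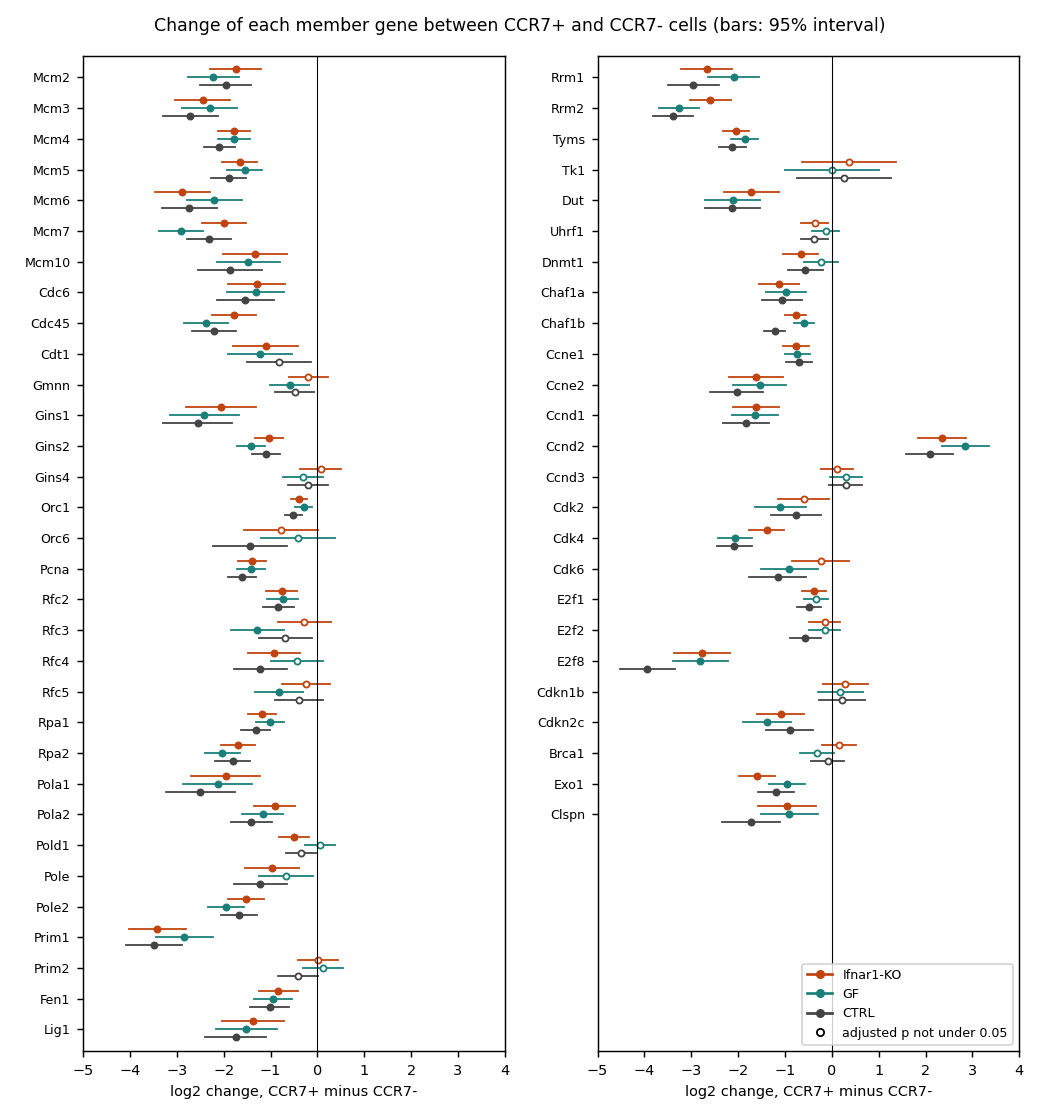
Log2 change of each of the 57 genes between CCR7+ and CCR7- cells (horizontal axis) with its 95% interval, one line per background and open points where the adjusted p was not under 0.05. Points lie left of 0 for most genes in all backgrounds, furthest for Prim1, Rrm2 and E2f8, and right of 0 for Ccnd2.

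The genes that copy chromatin with the DNA changed less. Chaf1a and Chaf1b, subunits of the histone chaperone CAF-1, changed by -1.05 ± 0.12 and -0.86 ± 0.06, with the stages apart on all arrays. Dnmt1, the maintenance DNA methyltransferase, read 7.80 to 8.41 on CCR7+ and 8.35 to 9.09 on CCR7- arrays and fell by 0.49 ± 0.10. It was called in Ifnar1-KO (-0.67) and CTRL (-0.57) and not in GF cells (-0.23, adjusted p 0.418). The Ifnar1-KO call ended without the Ifnar1-KO array CCR7+ 2 (-0.49) or CCR7- 3 (-0.53). The CTRL call ended without any 1 of the CTRL arrays CCR7+ 1, CCR7+ 2, CCR7+ 3 and CCR7- 2 (-0.56 to -0.57) or CCR7- 1 (-0.54). Uhrf1, which guides DNMT1 to newly copied DNA, fell by 0.29 ± 0.08 in the mean of the backgrounds, and no single background passed the test. The closest was CTRL (-0.38, adjusted p 0.0513). With the replicate number as a block it was called in CTRL and in Ifnar1-KO cells. Single leave-outs also gave calls, in CTRL without the CTRL array CCR7+ 1 or CCR7- 3, the GF array CCR7- 1 or CCR7- 3 or the Ifnar1-KO array CCR7+ 3, and in Ifnar1-KO without the CTRL array CCR7- 1.

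The cyclins and kinases of G1/S split by family member. Of the D cyclins, which answer to growth signals, Ccnd1 fell, Ccnd2 rose and Ccnd3 was not called. Ccnd2 had 9.25, 8.95 and 9.11 in Ifnar1-KO, 9.16, 9.08 and 8.70 in GF and 8.91, 8.30 and 8.50 in CTRL CCR7+ cells. It had 6.44, 7.38 and 6.44 in Ifnar1-KO, 6.25, 6.28 and 5.86 in GF and 6.23, 6.65 and 6.57 in CTRL CCR7- cells. Each CCR7+ array was above each CCR7- array, an order found in 7% of all genes, and the highest CCR7- value came from Ifnar1-KO CCR7- 2. The rise was 2.35 ± 0.24 in Ifnar1-KO, 2.85 ± 0.24 in GF and 2.09 ± 0.24 in CTRL cells. On the array with the highest thymocyte marker level, Ifnar1-KO CCR7+ 2, Ccnd2 was the lowest of its group at 8.95. In CTRL CCR7+ cells the array with the lowest thymocyte marker level, CCR7+ 2 (5.30), also had the lowest Ccnd2 (8.30). A link between the markers and Ccnd2 was not tested. Ccnd1 was 8.59 to 9.67 on CCR7+ and 10.34 to 11.23 on CCR7- arrays and fell by 1.70 ± 0.13. Ccnd3 changed by 0.24 ± 0.09 with an adjusted p of 0.0602, and was called as higher in 8 of 27 alternative fits, among them the replicate block and those without the Ifnar1-KO array CCR7+ 1 or CCR7- 2 or the GF array CCR7- 2 (0.18 to 0.35 over all 27).

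The E cyclins, which act with CDK2 at the G1/S boundary, both fell in each background, with mean changes of -1.73 ± 0.15 for Ccne2 and -0.73 ± 0.07 for Ccne1. Of the kinases, Cdk4 fell by 1.85 ± 0.10 with no overlap (7.01 to 7.89 on CCR7+ and 8.75 to 9.48 on CCR7- arrays). Cdk2 (-0.82 ± 0.15) and Cdk6 (-0.77 ± 0.17) fell in the mean of the backgrounds with overlapping arrays, and were called in GF and CTRL cells. Neither was called in Ifnar1-KO cells, where Cdk2 changed by -0.60 and Cdk6 by -0.24. Without the array CCR7- 2, Cdk2 was called there too. In CTRL (-0.77) the Cdk2 call ended without the array CCR7+ 1 (-0.64), CCR7+ 3 (-0.74), CCR7- 2 (-0.79) or CCR7- 3 (-0.64), and with the replicate block (adjusted p 0.0672). In GF (-0.90) the Cdk6 call ended without the array CCR7+ 2 (-0.84), CCR7+ 3 (-0.82), CCR7- 1 (-0.76) or CCR7- 3 (-0.77).

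Among the E2F factors the largest change was that of E2f8, a repressor of E2F targets that is itself made in S phase. E2f8 had 4.29, 5.10 and 4.44 in Ifnar1-KO, 4.37, 4.54 and 4.65 in GF and 4.42, 4.10 and 3.99 in CTRL CCR7+ cells. It had 7.44, 6.89 and 7.81 in Ifnar1-KO, 7.96, 7.15 and 6.87 in GF and 8.10, 8.11 and 8.12 in CTRL CCR7- cells. The 3 CTRL CCR7- arrays were the 3 highest of all, and nothing overlapped between stages. E2f8 fell by 3.17 ± 0.16 in the mean of the backgrounds, with an adjusted p of 4.22e-10. The activators E2f1 and E2f2 changed by -0.41 ± 0.07 and -0.29 ± 0.09. E2f1 was called in Ifnar1-KO and CTRL, and its Ifnar1-KO call (-0.39) ended without the Ifnar1-KO array CCR7+ 1 (-0.36), CCR7+ 3 (-0.34), CCR7- 2 (-0.40) or CCR7- 3 (-0.29). In GF (-0.34, adjusted p 0.0561) E2f1 was called without the Ifnar1-KO array CCR7+ 2, CCR7- 1 or CCR7- 3 or the CTRL array CCR7- 1. E2f2 was called in CTRL (-0.56), but not without the array CCR7- 2 (-0.47).

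Of the CDK inhibitors, Cdkn1b, which encodes p27, was bright and did not pass the test, at 9.87 to 10.59 on CCR7+ and 9.58 to 10.32 on CCR7- arrays (0.23 ± 0.13, adjusted p 0.184). Cdkn2c, which encodes p18 of the INK4 family, fell by 1.13 ± 0.14, and its CTRL call (-0.90) ended without the CTRL array CCR7+ 3 (-0.78). The last 3 genes link replication to repair. Exo1, an exonuclease, changed by -1.25 ± 0.10, and Clspn, which encodes the checkpoint adaptor claspin, by -1.20 ± 0.17. The Clspn call ended in Ifnar1-KO (-0.96) without the array CCR7+ 1 (-0.87), CCR7+ 3 (-0.93), CCR7- 1 (-0.86) or CCR7- 3 (-0.70), and was -1.45 without both arrays of replicate 2. In GF (-0.90) it ended without the array CCR7+ 2 (-0.89), CCR7+ 3 (-0.80) or CCR7- 1 (-0.59). Brca1, of homologous recombination, did not pass the test at -0.08 ± 0.10, and lay at 4.81 to 5.46 on CCR7+ and 4.89 to 5.56 on CCR7- arrays. Both stages are in the range of genes that DCs do not use, so a change could be missed.

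Several of these genes ended near the level of genes that DCs do not use. A set of 17 genes of other tissues had a median level of 3.86 over all arrays and a highest mean of 5.51. Of the 57 replication genes, 25 in Ifnar1-KO, 24 in GF and 27 in CTRL CCR7+ cells had means at or under 5.51, against 5, 7 and 4 in the CCR7- cells of the same backgrounds. Prim1, E2f8, Gins1 and Pola1 were among them in CCR7+ cells of each background. Orc1, E2f2 and Brca1 were among them in every group of both stages. Probes differ in their background, so this is a rough guide, and the falls of such genes may be lower bounds. The order among the largest falls is therefore not settled.

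Neighbouring genes of the same processes were counted from further lists, without the 57. For each list the share of all genes to set beside it is 18.9% fallen and 20.4% risen. Of 37 other fork and origin genes, 27 fell and 3 rose in the mean of the backgrounds, with a median of -0.64. The largest falls were those of the fork protection gene Tipin (-3.19 ± 0.24), the nuclease and helicase gene Dna2 (-2.69 ± 0.17) and Dbf4, the activator of the CDC7 kinase (-2.23 ± 0.19). The rises were Gins3, Donson (1.28 ± 0.14) and Mcm9 (0.50 ± 0.13). Of 18 other nucleotide supply genes, 12 fell and 4 rose, with a median of -1.04. Umps (-2.60 ± 0.16), of pyrimidine synthesis, Dck (-2.42 ± 0.22), a salvage kinase, and Shmt2 (-2.29 ± 0.16), of one-carbon metabolism, fell most. Mthfd2 (1.30 ± 0.14), also of one-carbon metabolism, rose, as did Samhd1 (0.79 ± 0.06), which breaks down deoxynucleotides, and Rrm2b (0.50 ± 0.17), the reductase subunit used outside S phase.

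Of 29 other regulators of G1/S, 15 fell and 8 rose, with a median of -0.40, where 18.9% of all genes fell and 20.4% rose. The largest falls were those of Ccna2, the S phase cyclin (-3.57 ± 0.24), Myc, a driver of growth and division (-3.04 ± 0.12), and Cdc25a, a CDK phosphatase (-1.89 ± 0.15). The largest rise was that of Cdkn2b, which encodes the INK4 inhibitor p15. It had 7.49, 8.25 and 7.55 in Ifnar1-KO, 7.31, 8.21 and 7.89 in GF and 7.52, 7.46 and 7.62 in CTRL CCR7+ cells, against 5.42, 4.56 and 4.82, 4.80, 4.76 and 4.70, and 4.76, 4.62 and 4.93 in the CCR7- cells of the same backgrounds. The stages did not overlap, and the change was 2.88 ± 0.14. Cdkn2b and Cdkn2c, both INK4 inhibitors of CDK4 and CDK6, thus went opposite ways. Myb (1.12 ± 0.08) and the retinoblastoma relative Rbl2 (0.65 ± 0.13) also rose.

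Of 21 other S phase checkpoint and recombination genes, 19 fell and 1 rose, with a median of -0.77. The falls were led by the checkpoint kinase Chek1 (-1.69 ± 0.11), the helicase Brip1 (-1.61 ± 0.11) and Rad51ap1 (-1.57 ± 0.11), and the rise was that of the kinase Atr (0.62 ± 0.16). Of 15 p53 target genes, 10 rose and 2 fell, with a median of 0.41. Plk2 (3.52 ± 0.17), Trp53inp1 (1.85 ± 0.22) and the growth arrest gene Gadd45a (1.48 ± 0.11) rose most, while Btg2 (-1.39 ± 0.11) and Aen (-0.22 ± 0.06) fell. Cdkn1a, the best known p53 target of the 58 genes, is the one without a probeset of its own. Of 30 genes of mitosis and G2/M, 30 fell, with a median of -2.72 against -1.16 for the 57 replication genes. Ccnb2 (-4.07 ± 0.24), the kinesin Kif23 (-3.95 ± 0.21) and the spindle checkpoint kinase Bub1 (-3.87 ± 0.17) fell most. In their promoter windows 20 of 26 held the CHR letters and 1 of 26 the E2F letters. Over all genes 20.4% rose and 18.9% fell in the same comparison.

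**Figure D4:**
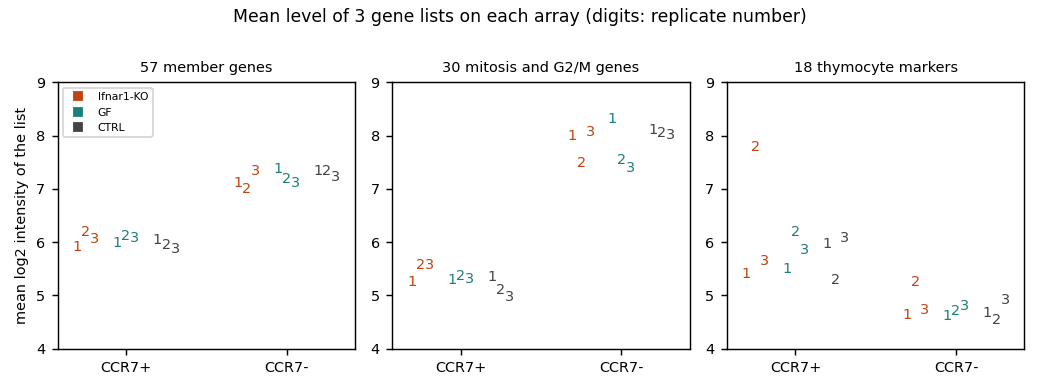
Mean log2 intensity (vertical axis) of the 57 replication genes, of 30 mitosis and G2/M genes and of 18 thymocyte markers on each array, by stage (CCR7+ left) and background, with digits for the replicate number. The replication genes average 5.88 to 6.19 on CCR7+ and 7.0 to 7.38 on CCR7- arrays, the mitosis genes 4.98 to 5.58 on CCR7+ and 7.40 to 8.30 on CCR7- arrays, and the thymocyte markers reach 7.79 on 1 CCR7+ array.

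Single arrays moved some of these values. Over the 57 genes the mean level was 5.88 to 6.19 on CCR7+ and 7.0 to 7.38 on CCR7- arrays, so that the stages did not overlap. The Ifnar1-KO array CCR7- 2 had 9 genes more than 0.5 below the mean of its group (Mcm2, Mcm10, Gmnn, Orc6, Rfc4, Pola1, Pole, Lig1 and Clspn) and 2 as far above it (Cdt1 and Ccnd2). The Ifnar1-KO array CCR7+ 2, with the highest thymocyte marker level, had 6 genes as far above its group (Gins1, Orc6, Rfc3, Dut, Ccne2 and Cdk6) and Tk1 as far below. Over all genes the Ifnar1-KO array CCR7- 2 had 6.33% as far below and 2.48% as far above, and CCR7+ 2 had 4.28% below and 2.67% above. The Ifnar1-KO array CCR7- 3 had 7 genes as far above its group and 1 below, where 2.35% of all genes were above and 0.547% below. The GF array CCR7- 1 had 4 above, where 3.5% of all genes were above, and CCR7- 3 had 4 below, where 1.65% of all genes were below. Without both Ifnar1-KO arrays of replicate 2, 43 genes were called in Ifnar1-KO, but they were not the same 43. Cdt1 (-0.60) and Pold1 (-0.55) lost their calls, Orc6 and Cdk2 gained them, and the median change was -1.21 in place of -1.09. In the CTRL groups no CCR7- array had a gene more than 0.5 from the group mean.

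Between the backgrounds, none of the 57 genes was called. The change from CCR7- to CCR7+ was compared as Ifnar1-KO minus CTRL and as GF minus CTRL, and the levels of each stage likewise, and in these 6 comparisons 0 of 57 passed limma's test. Few genes passed at all, with 0% called for the 2 differences of change and for Ifnar1-KO minus CTRL in CCR7- cells, 0.015% for Ifnar1-KO minus CTRL in CCR7+ cells and for GF minus CTRL in CCR7- cells, and 0.0301% for GF minus CTRL in CCR7+ cells. With an unadjusted p below 0.05, the Ifnar1-KO difference of change had 5 genes and that of GF had 4, where 4.52% and 3.31% of all genes were below it. By level Ifnar1-KO had 3 of the 57 genes in CCR7+ cells (5.26%, against 2.92% of all genes) and 4 in CCR7- cells (7.02%, against 7.03%). GF had 8 in CCR7+ cells (14%, against 5.86%) and 7 in CCR7- cells (12.3%, against 6.32%). The smallest adjusted p in any of the 6 was 0.369, that of Chaf1b for GF minus CTRL in CCR7+ cells (0.42 ± 0.10). Both sets of comparisons share the CTRL arrays, so their values are not independent.

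The median difference of change over the 57 genes was 0.24 for Ifnar1-KO and 0.22 for GF, where the medians of all genes were -0.03 and -0.02. For a gene that fell, a positive value means a smaller fall than in CTRL, and for Ccnd2, which rose, a larger rise. For levels the medians were 0.05 in CCR7+ and -0.17 in CCR7- cells for Ifnar1-KO, and 0.05 in CCR7+ and -0.07 in CCR7- cells for GF. Without both Ifnar1-KO replicate 2 arrays the median in CCR7- cells was -0.04 in place of -0.17. E2f8 had the largest single difference, with a fall of 2.77 ± 0.28 in Ifnar1-KO, 2.81 ± 0.28 in GF and 3.94 ± 0.28 in CTRL cells. The differences of 1.17 ± 0.39 and 1.13 ± 0.39 had unadjusted p-values of 0.00919 and 0.0112 and adjusted ones of 0.958 and 0.999. Other genes under an unadjusted p of 0.05 were Rrm2 (0.81), Cdk4 (0.70), Cdk6 (0.92) and Chaf1b (0.45) for Ifnar1-KO, and Rrm1 (0.86), Ccnd2 (0.76) and Chaf1b (0.62) for GF.

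These comparisons do not show that the backgrounds act alike. The 95% interval of a difference of change reached 0.66 to either side at the median over the 57 genes, and that of a difference in level 0.47. The whole interval lay within 1 of 0 for 34 genes in the Ifnar1-KO difference of change and for 31 in that of GF. For levels it did so for 50 genes in CCR7+ and 48 in CCR7- cells with Ifnar1-KO, and for 48 in CCR7+ and 50 in CCR7- cells with GF. For the remaining genes, E2f8 included, a change more than 1 unit apart from CTRL was not excluded at this precision.

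**Figure D5:**
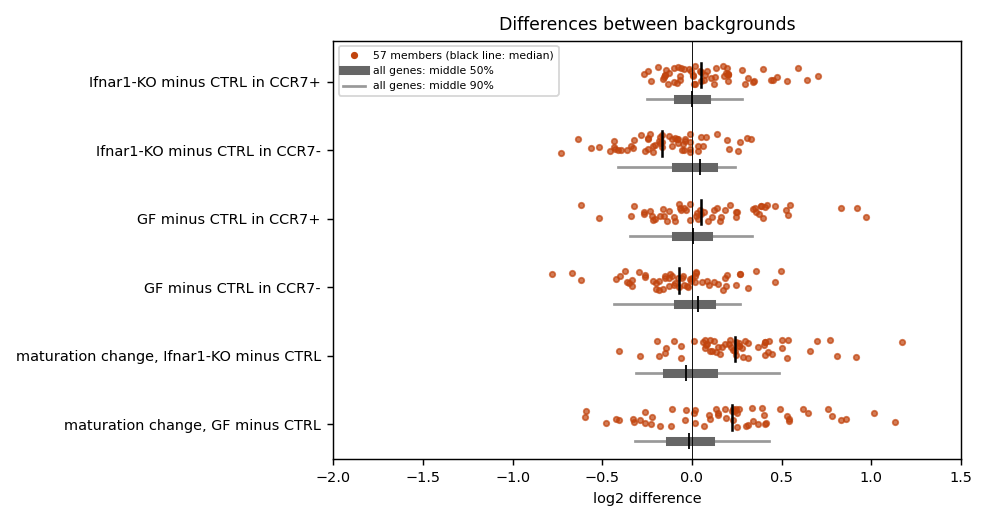
Differences between backgrounds on the log2 scale (horizontal axis) in 6 comparisons, with 1 dot for each of the 57 genes, a black line at their median, and bars for the middle 50% (thick) and 90% (thin) of all genes. The medians lie between -0.17 and 0.24, and no dot was called.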

How the data were processed

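The deposited table holds log2 intensities of 35556 probesets on 18 arrays, made by the authors with RMA in the oligo package, per the submitters' processing notes. RMA puts all arrays on one scale, so a global change in RNA per cell cannot be seen. Amplified RNA of sorted cells was hybridised, per the labels. Of the probesets, 21789 have 1 gene symbol in the platform annotation, 1621 several and 12146 none, and the highest-mean probeset stood for each of 19938 genes. With limma 3.58.1 in R 4.3.3, one mean per group was fitted over all 18 arrays with 12 residual degrees of freedom, with no filter and Benjamini-Hochberg adjustment over all genes. The number of arrays limits the precision. The genes and lists were chosen with earlier results of these data known, so their counts are descriptions and no list was tested as a set. Genes outside the 57 were named as the 3 largest called changes each way in the mean of the backgrounds. The fit was tested on simulated data. In the CTRL pair of replicate 2 the code letters run opposite to the other pairs, and the labelled stage was used, which its stage markers followed. Alternatives changed the scaling, the probeset, the filter, the variance model, the arrays left out, a covariate for a trailing r in the array codes and a block for the replicate number. Same-numbered arrays of a background deviated together in Ifnar1-KO (correlations of 0.236 to 0.321) and CTRL (0.100 to 0.188), less so in GF (0.00354 to 0.267).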

Additional observations from a re-analysis of the deposited data

How the results depend on the processing

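The number of genes called stayed within 1.5 times its value in every alternative run, and no called change turned its direction. Leaving out 1 array at a time gave 37 to 44 calls in Ifnar1-KO, 38 to 44 in GF, 42 to 47 in CTRL and 50 to 52 in the mean of the backgrounds, and 0 in each of the 6 comparisons between backgrounds. Of the calls, 33 of 43 in Ifnar1-KO, 34 of 43 in GF, 41 of 45 in CTRL and 49 of 51 in the mean held under every alternative. Fitting only the groups compared gave 34, 40 and 48 calls in Ifnar1-KO, GF and CTRL, and ended 9 Ifnar1-KO calls (Mcm10, Cdt1, Rfc4, Pold1, Fen1, Lig1, Dnmt1, E2f1 and Clspn) and 4 GF calls (Orc1, Rfc5, Cdk6 and Clspn). Without both Ifnar1-KO arrays of replicate 2, an alternative chosen after seeing the data, there were 43, 43, 48 and 52 calls in Ifnar1-KO, GF, CTRL and the mean. Leaving out GF replicates 2 and 3 as well, also chosen after seeing the data, left 1 GF array per stage, assumed to vary like the other groups. In that fit calls were both lost and gained, in Ifnar1-KO as well as in GF. Of the genes that lost a GF call, Cdc6 stood at -1.33, Rfc2 at -0.27 and Cdkn2c at -0.71. Some array codes end in an r of unknown meaning, on all GF arrays, 2 Ifnar1-KO pairs and 1 CTRL pair, so that it goes in part with the background. With it as a covariate there were 44, 44, 46 and 52 calls and 0 between backgrounds, and the calls added were Uhrf1 in Ifnar1-KO and CTRL, E2f1 in GF and Ccnd3 in the mean. Tk1 was 0.21 as reported, 0.01 to 0.41 with 1 array left out, 0.64 (adjusted p 0.0401) without Ifnar1-KO replicate 2 and GF replicates 2 and 3, -0.52 with the mean of its probesets and -1.26 with its other probeset, a setting chosen after seeing the data. The cause was not tested.

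With the replicate number as a block there were 43 calls in Ifnar1-KO, 41 in GF, 45 in CTRL and 51 in the mean of the backgrounds. In GF, where the numbers did not clearly pair the arrays, it ended the calls of Gmnn (adjusted p 0.083) and Cdk6 (adjusted p 0.0721), and in the mean of the backgrounds that of E2f2 (adjusted p 0.0553). Beside these and the changed calls of Pold1, Cdk2, Uhrf1 and Ccnd3 given above, the block changed no other call.

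Levels near those of unexpressed genes limit how far a fall can be measured, and 24 to 27 of the 57 genes were at such levels in CCR7+ cells. The arrays measure sorted populations, and the labels give no cell counts in cycle.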
